A study of Mus musculus with 28 samples.

Results

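The genes described here are the replication-dependent histone genes, the 61 genes whose symbol begins with Hist1h, Hist2h, Hist3h or Hist4h, out of 26581 genes listed in at least 1 of 12 deposited tables. They comprised 6 H1, 16 H2a, 16 H2b, 12 H3 and 11 H4 genes. Of the 61, 47 lay on chromosome 13, 10 on chromosome 3, 3 on chromosome 11 and 1 on chromosome 6 (GRCm38). 59 of them were listed at every age and are used for levels. The remaining pair, Hist2h2aa1 and Hist2h2aa2, was not. GENCODE M21 annotates Hist1h2al and Hist3h2bb-ps as processed pseudogenes. The symbol alone chose the members, so copies that are not tied to replication, such as the testis H1 gene Hist1h1t, are among them.

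Histones package DNA into nucleosomes. An octamer of H2A, H2B, H3 and H4 forms the core, and the linker histone H1 binds where DNA enters and leaves it. Dividing cells make most of their histones in S phase from clustered genes without introns, whose mRNAs end in a conserved stem-loop instead of a poly(A) tail. The stem-loop binding protein SLBP holds that stem-loop, and the U7 snRNP directs the cut that forms the end. Cells that have left the cell cycle, such as neurons, take up replication-independent variants such as H3.3, H2A.Z and H1.0, which come from polyadenylated mRNAs. Some clustered genes, in mouse and human cells, also make longer polyadenylated mRNAs.

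RNA came from the dLGN (dorsal lateral geniculate nucleus), a thalamic nucleus that passes retinal signals to visual cortex, of wild-type C57BL/6J mice of both sexes, all labelled as controls under standard housing. Each library came from 1 mouse. The 7 groups were embryonic day 18 (E18) and postnatal days 4, 10, 16, 20, 27 and 32 (P4 to P32), with 4 libraries each. Ribosomal RNA was removed from total RNA without selection for poly(A), so transcripts without a tail are counted. The design compares adjacent ages. The labels do not give the sex of a sample, and the nucleus was taken whole, so fewer cells of a type and less RNA per cell cannot be told apart.

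Library totals ran from 8224851 to 40206549 reads, and mitochondrial genes took 1.37% to 21.8% of them. Histone genes took 0.0213% to 0.244%. A library is called here by its age and its column number (3, 4, 5 or 6), and values of 4 libraries follow that order. Levels are CPM (counts of a gene scaled to library size), with all 28 libraries scaled together by TMM, while fold changes and tests use the 8 libraries compared, scaled among themselves. The 8 relay neuron markers summed to 1050 to 4924 CPM over the 28 libraries, and none was at 0 at any age. At P32 alone they summed to 1050, 3326, 4924 and 3387 CPM. The 3 inhibitory neuron markers summed to 2218, 327, 313 and 348 CPM at P32. They were also highest in library 3 at P16, P20 and P27, with 1043, 1897 and 809 CPM. The 4 choroid plexus markers summed to 134 to 985 CPM at E18, highest in library 5, and to at most 26.2 CPM at any later age. Over the 59 histone genes, library 4 held the highest sum at 5 of 7 ages, and library 3 the lowest at P16, P20, P27 and P32. The part of tissue make-up in these differences was not tested.

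Histone mRNAs made in S phase end in a stem-loop, and those of 5 members were chosen to show it. They come from an H3 gene that fell, an H1 gene not called from E18 to P32 and an H3 gene that rose. The other stem-loops are those of the most abundant H4 gene and of an H2b gene. Each was read from its GENCODE M21 transcript, as DNA letters in the sense strand, with 7 bases either side, and the capitals mark the 16-base stem-loop.
Hist1h3b: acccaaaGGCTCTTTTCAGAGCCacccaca
Hist1h1c: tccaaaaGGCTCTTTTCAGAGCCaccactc
Hist2h3c1: ccacaaaGGCTCTTTTCAGAGCCaccacag
Hist1h4d: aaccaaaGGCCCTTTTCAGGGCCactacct
Hist1h2bb: acccaaaGGCTCTTTTAAGAGCCacccaca
A 16-base stem-loop followed the stop codon in 41 of the 48 members whose transcript runs past it, 21 to 58 bases downstream. 23 members carried exactly the form of Hist1h3b, and 6 carried the form of Hist1h2bb. The form of Hist1h4d stood in 5 members, all of type H4. Such a match was found in 74 of 47808 protein-coding transcripts (0.155%), a count that includes the transcripts of the histone genes themselves. Hist2h3c1 and Hist1h3b have the same stem-loop, and their levels moved in opposite directions. The annotated transcript of Hist2h3c1 runs a further 1167 bases past it, and that of Hist1h3b 51 bases. Over the 23 members with a ratio that run over 100 bases past it, log2 of P32 over E18 ranged from -3.00 to 2.95. A link between transcript end and level was not tested.

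Promoter windows of 300 bases, 250 before and 50 after the annotated start, were read from RefSeq (GRCm38.p6) for 54 members. 4 are shown, those of the H1, H2b and H3 genes that fell and of the H3 gene that rose. Capitals mark 4 motifs on either strand, the TATA box TATAAA, the CCAAT box CCAAT, the octamer ATTTGCAT and the H1 box AAACACA.
Hist1h1b (chr13:21780576-21780875, minus strand): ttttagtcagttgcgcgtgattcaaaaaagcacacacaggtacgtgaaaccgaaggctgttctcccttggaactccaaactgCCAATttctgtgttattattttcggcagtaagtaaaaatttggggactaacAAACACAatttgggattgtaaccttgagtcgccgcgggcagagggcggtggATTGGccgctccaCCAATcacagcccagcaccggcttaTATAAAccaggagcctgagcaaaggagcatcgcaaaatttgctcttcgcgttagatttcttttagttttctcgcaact
Hist1h2bn (chr13:21753826-21754125, plus strand): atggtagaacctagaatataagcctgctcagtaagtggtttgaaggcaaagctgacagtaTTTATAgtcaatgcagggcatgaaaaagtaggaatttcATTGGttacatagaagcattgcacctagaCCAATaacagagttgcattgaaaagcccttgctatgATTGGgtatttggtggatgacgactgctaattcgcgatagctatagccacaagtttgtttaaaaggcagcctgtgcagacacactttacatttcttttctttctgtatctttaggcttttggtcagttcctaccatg
Hist1h3b (chr13:23752095-23752394, plus strand): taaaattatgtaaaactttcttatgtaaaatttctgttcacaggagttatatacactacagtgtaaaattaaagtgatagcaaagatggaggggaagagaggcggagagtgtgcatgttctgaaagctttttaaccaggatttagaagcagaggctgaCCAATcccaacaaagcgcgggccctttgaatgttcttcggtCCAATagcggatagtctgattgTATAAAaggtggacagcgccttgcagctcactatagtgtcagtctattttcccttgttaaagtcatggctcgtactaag
Hist2h3c1 (chr3:96246435-96246734, plus strand): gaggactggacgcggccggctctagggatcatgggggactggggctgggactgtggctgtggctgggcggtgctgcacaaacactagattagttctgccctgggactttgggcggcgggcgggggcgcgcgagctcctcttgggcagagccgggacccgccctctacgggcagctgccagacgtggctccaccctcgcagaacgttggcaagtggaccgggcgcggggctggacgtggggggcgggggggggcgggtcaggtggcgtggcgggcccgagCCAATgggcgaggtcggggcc
TATAAA stood in 56.4% of the 55 member windows and in 13.6% of all 32851 windows of the table. CCAAT stood in 87.3% against 37.4%, in every H1, H2a, H2b and H3 window and in 30% of the H4 windows. The octamer stood in 40% of H2a and 42.9% of H2b windows, in no H1, H3 or H4 window, and in 1.74% of all windows. AAACACA stood in 83.3% of H1 windows and in 7.18% of all. The Hist2h3c1 window held no TATAAA, and its only CCAAT lay past the annotated start. The Hist1h2bn window overlapped that of the H2a gene Hist1h2ak on the opposite strand by 263 bases, and 7 such pairs of an H2a and an H2b gene were found. A match is a run of letters, not evidence of binding.

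Summed over its genes, each of the 5 types had its lowest mean at P16, P20 or P32. The P16 mean over all 59 genes was 28.5% of that at E18. Over the 59 genes the 4 E18 libraries held 673, 2246, 582 and 1060 CPM. The 4 P16 libraries held 218, 403, 329 and 352 CPM, so every P16 library was below every E18 library. The mean went from 1140 ± 766 CPM (SD, n = 4) at E18 to 903 ± 512 at P4, 513 ± 150 at P10 and 325 ± 78.1 at P16. It was 355 ± 86.4 at P20, 435 ± 117 at P27 and 364 ± 95.1 at P32. The SD was widest at E18, where library 4 stood above the rest.

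**Figure D1:**
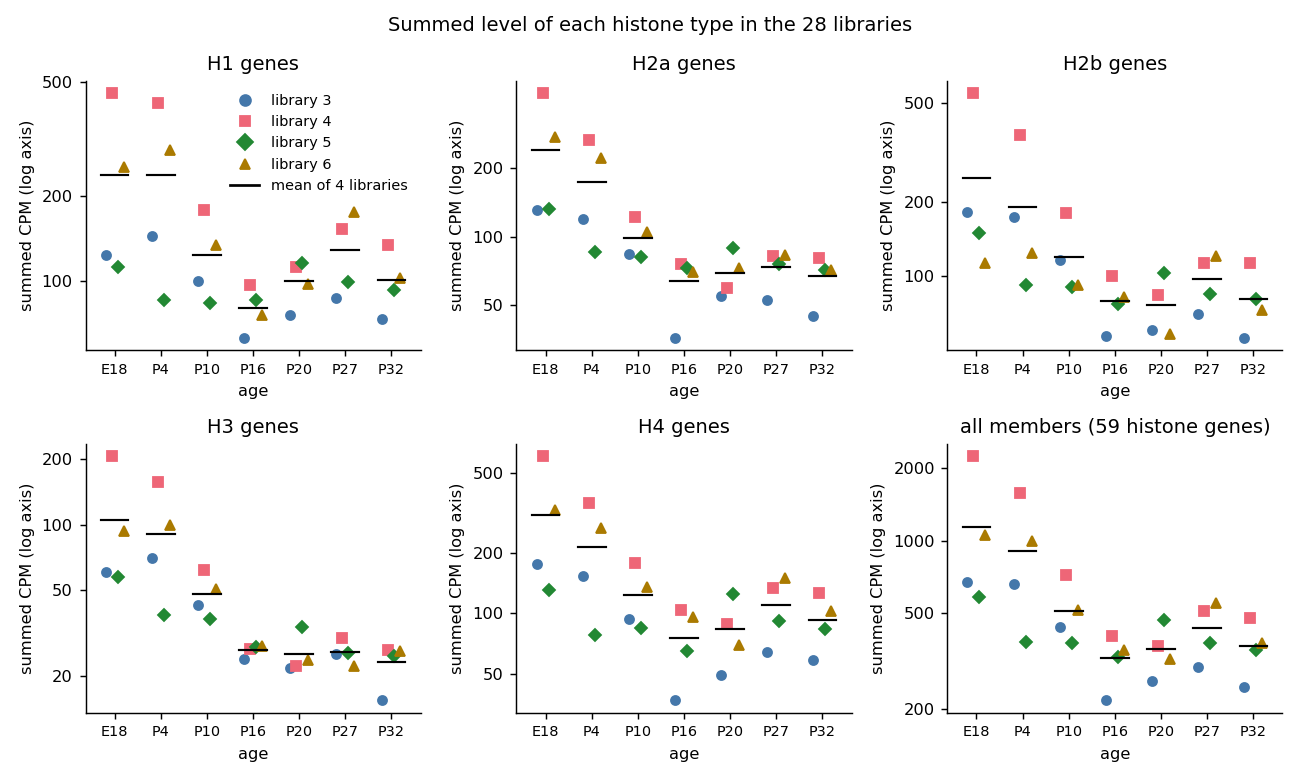
Summed CPM (log axis) of the H1, H2a, H2b, H3 and H4 genes and of all 59 genes listed at every age, against age. Points are the 4 libraries of an age, marked by number, and each short black line is their mean; the H3 sum runs from 57.6 to 207 CPM at E18 and from 15.5 to 26.3 CPM at P32.

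H3 genes, which encode the core histone that carries most tail marks, had at P32 the lowest share of their E18 level of the 5 types. At P16 the H4 genes were lower, with 24.3% against 25.3% for H3. The H3 sums were 60.3, 207, 57.6 and 93.1 CPM at E18 and 15.5, 26.3, 24.8 and 26.2 CPM at P32. The groups did not overlap, and the P32 mean was 22.2% of that at E18. H2a genes stood at 27.7%, H4 genes at 29.95% and H2b genes at 32.4%. The H2a and H4 groups did not overlap, and the H2b groups touched, since E18 library 6 and P32 library 4 both held 113.2 CPM. H1 genes stood at 42.7%, and their E18 and P32 libraries overlapped (112 to 457 CPM against 73.6 to 134). The log2 ratio of the P32 to the E18 mean was -1.23 for H1, -1.85 for H2a, -1.62 for H2b, -2.17 for H3 and -1.74 for H4. Without E18 library 4 these became -0.69, -1.42, -0.88, -1.60 and -1.19, which moves the H2b ratio by over 1.5 times. Without the most abundant gene of the type, Hist3h2a, the H2a value became -2.59, below that of H3 with all its genes. No test was made on a sum over members.

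From E18 to P4 no histone gene was called. Of 55 tested, 0 passed an adjusted p of 0.05 in edgeR's quasi-likelihood test with Benjamini-Hochberg adjustment, where 3.12% of all genes were called lower and 4.75% higher. 1 member had an unadjusted p under 0.05. The DESeq2 Wald test called 1 lower, and limma-voom and the authors' deposited table called 0. The median log2 fold change of the members was -0.29, against -0.02 over all genes tested. Libraries of the same number resembled each other at these ages. With that number as a block, 13 members were called lower and none higher, with 13.6% of all genes called lower and 15.8% higher. 7 of the 13 were H4 genes, 3 H2b, 2 H2a and 1 H3. Beside this, 6 erythroid markers summed to 221 to 681 CPM at E18 and 43.4 to 66.3 CPM at P4, choroid plexus markers to 134 to 985 and at most 19.1 CPM, and astrocyte markers to 224 to 373 and 587 to 834 CPM. Their part in the result was not tested.

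By library number, the types differed at this step in how many numbers were lower. The H1 sum was 124, 457, 112 and 252 CPM at E18 and 144, 421, 86.3 and 289 CPM at P4, higher in 2 of the numbers and lower in the other 2. The H4 sum was lower at P4 in all 4 numbers, by a log2 ratio of -0.77 to -0.20, as was the H2a sum, by -0.69 to -0.14. The H2b sum was lower in 3 numbers and the H3 sum in 2. Hist1h4d, an H4 gene with 43, 180, 32 and 92.6 CPM at E18, held 37, 108, 20.1 and 72.2 CPM at P4. Its log2 fold change was -0.56 ± 0.58 (SE; adjusted p = 0.65) without the block and -0.51 ± 0.10 (adjusted p = 0.00335) with it. The groups overlapped, since library 4 at P4 exceeded 3 of the E18 libraries.

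From P4 to P10, 5 of 53 tested were called lower and none higher, where 8.16% of all genes were called lower and 10.3% higher. The median log2 fold change was -0.79, against -0.01 over all genes, and 52 of the 53 values were below 0. With the number as a block, 28 were called lower, 7 of type H3, 7 H4, 5 H2a, 5 H2b and 4 H1, with 18.1% of all genes called lower and 18% higher. Without the block the count rested on single libraries. It became 0 without P4 library 4, P10 library 3, P10 library 5 or P10 library 6, 1 without P4 library 6, and 20 without P4 library 5. Beside it, neural progenitor markers summed to 289 to 412 CPM at P4 and 177 to 258 CPM at P10. Astrocyte markers summed to 587 to 834 and 1969 to 2512 CPM, oligodendrocyte precursor markers to 447 to 543 and 1032 to 1147 CPM, and mature oligodendrocyte markers to 70.9 to 121 and 1798 to 2294 CPM. Their part in the result was not tested.

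The 5 called genes were 3 of type H2b and 1 each of H3 and H4. Hist3h2ba, the H2b gene with the most reads, held 57.8, 98.8, 35 and 48.4 CPM at P4 and 34.2, 38.8, 28.1 and 26.2 CPM at P10. All P10 libraries but library 4 were below every P4 library. It was 1.88-fold lower (log2 -0.91 ± 0.28 SE, adjusted p = 0.0417, edgeR). Hist1h3b, an H3 gene, was 2.33-fold lower without overlap (adjusted p = 0.0263), and the H4 gene Hist1h4j was 2.97-fold lower (adjusted p = 0.0436). Hist3h2bb-ps was 2.74-fold lower and Hist2h2be, an H2b gene known for a polyadenylated transcript in non-dividing cells, 1.63-fold lower (adjusted p = 0.0309 and 0.0496). Each of these 5 calls was lost in 4 to 7 of the 8 fits that leave out 1 library.

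From P10 to P16 genes of all 5 types fell. Of 50 members tested, 18 were called lower and 2 higher, where 5.65% of all genes were called lower and 6.2% higher. By type, 6 of 10 H3, 4 of 10 H2a, 3 of 5 H1, 3 of 14 H2b and 2 of 11 H4 genes were called lower. The median log2 fold change was -1.04, against 0.01 over all genes. Beside it, the 5 neural progenitor markers summed to 177 to 258 CPM at P10 and 114 to 172 CPM at P16. The 5 mature oligodendrocyte markers summed to 1798 to 2294 CPM at P10 and 16690 to 36750 CPM at P16, and astrocyte markers to 1969 to 2512 and 3715 to 4666 CPM. Their part in the result was not tested.

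Hist1h1b, a linker histone gene known to follow proliferation, held 9.42, 16.7, 9.57 and 15 CPM at P10 and 1.75, 1.37, 2.64 and 2.61 CPM at P16. The groups did not overlap. It was 6.01-fold lower (log2 -2.59 ± 0.30 SE, adjusted p = 0.000193). None of the 8 fits that leave out 1 library lost the call.

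Hist1h3b held 2.31, 2.87, 1.66 and 3.01 CPM at P10 and 0.438, 0, 0.293 and 0.746 CPM at P16. Library 4 of P16 held no read of it. The gene was 6.34-fold lower (log2 -2.66 ± 0.61 SE, adjusted p = 0.0131), and it had already been lower at P10 than at P4. 3 other H3 genes are named. Hist1h3c was 5.95-fold lower, Hist1h3g 5.66-fold and Hist1h3a 3.801-fold (adjusted p = 0.0048, 0.028 and 0.00451). The call of Hist1h3g was lost without P10 library 4, P10 library 6 or P16 library 5. 

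Of the H2a genes, Hist1h2af was 5.90-fold lower (adjusted p = 0.00107) and Hist1h2ak 3.69-fold lower (adjusted p = 0.00123). Hist1h2ak held 6.67, 9.80, 5.71 and 7.99 CPM at P10 and 1.49, 2.37, 1.86 and 2.40 CPM at P16. The groups did not overlap. Hist1h2bn, named here for the shared promoter window after its values were seen, was 3.11-fold lower (adjusted p = 0.00889). Hist1h2bb was 3.89-fold lower (adjusted p = 0.00704). Among the H4 genes, Hist2h4 held 17.9, 26.5, 20.7 and 30.2 CPM at P10 and 6.75, 13.8, 10.2 and 14.8 CPM at P16. It was 2.09-fold lower (adjusted p = 0.0197), a call lost without P10 library 6 or P16 library 5.

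The 2 genes called higher from P10 to P16 were an H3 and an H2b gene. Hist2h3c1 (chr3:96246685-96248509, plus strand) held 1.24, 1.18, 1.26 and 1.29 CPM at P10. It held 9.46, 7.77, 6.89 and 5.55 CPM at P16, so every P16 library was above every P10 library. It was 5.89-fold higher (log2 2.56 ± 0.29 SE, adjusted p = 0.000157), and no fit without 1 library lost the call. Hist1h2bc held 3.71, 7.58, 3.59 and 3.48 CPM at P10 and 8.76, 10.3, 7.97 and 12.3 CPM at P16. The groups did not overlap, although P10 library 4 came close to P16 library 5. It was 2.17-fold higher (log2 1.12 ± 0.30 SE, adjusted p = 0.0278), a call lost without P10 library 3, 5 or 6 or P16 library 4 or 6.

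**Figure D2:**
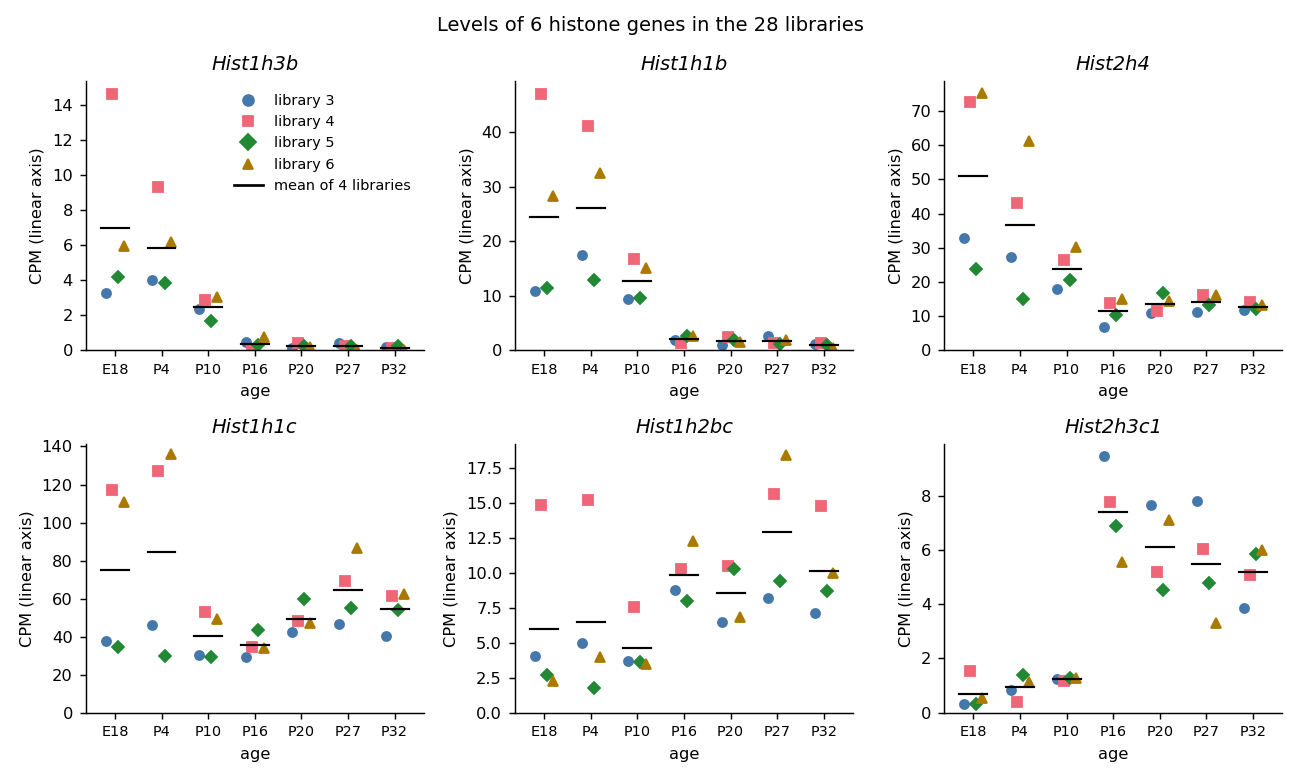
CPM (linear axis) of 6 histone genes against age, with 1 point per library, marked by number, and a short black line at the mean of 4. Hist1h3b, Hist1h1b and Hist2h4 are low from P16 on; Hist2h3c1 steps up between P10 (at most 1.29 CPM) and P16 (at least 5.55 CPM).

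After P16 no member was called. In the comparisons P20 against P16, P27 against P20 and P32 against P27, 46, 43 and 43 members were tested and 0 were called, where 0% of all genes were called in edgeR in either direction. In each comparison 1 member had an unadjusted p under 0.05, and the DESeq2 Wald test, limma-voom and the authors' deposited table also called 0. Median log2 fold changes were 0.08, 0.08 and -0.26, against -0.01, -0.02 and 0.02 over all genes. P27 library 6 detected 16938 genes with 21.8% mitochondrial reads, and the other P27 libraries 21483 to 22937 genes with 4.58% to 17.3%. Without that library 0 members were called in P27 against P20 and in P32 against P27. Its part in the spread was not tested. Hist1h1c, the linker gene with the most reads, held 29.5, 34.3, 43.7 and 34.1 CPM at P16 and 42.6, 48.1, 59.7 and 47.4 CPM at P20. All 4 library numbers were higher at P20, but the adjusted p was 0.993 (log2 0.48 ± 0.17 SE).

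Across the whole span, from E18 to P32, 44 of 52 members tested were called lower and 1 higher, where 22.6% of all genes were called lower and 24.1% higher. All 11 H4 genes tested, 10 of 11 H2a, 10 of 15 H2b, 9 of 10 H3 and 4 of 5 H1 genes were called lower. The median log2 fold change was -2.30, against -0.01 over all genes. Beside it, the neural progenitor markers summed to 361 to 635 CPM at E18 and 99.1 to 127 CPM at P32, and erythroid markers to 221 to 681 and 62.5 to 99.5 CPM. Mature oligodendrocyte markers summed to 48.5 to 80.1 CPM at E18 and 19210 to 29670 CPM at P32, astrocyte markers to 224 to 373 and 2915 to 3589 CPM, and microglia markers to 23.5 to 33.97 and 130 to 181 CPM. E18 libraries detected 23047 to 24149 genes with 1.37% to 4.03% mitochondrial reads, and P32 libraries 19117 to 22117 genes with 4.85% to 11.1%. Their part in the result was not tested. The count of genes called lower stayed between 37 and 45 when 1 library was left out. Over all 7 ages together, 50 of 57 members differed in edgeR's F test, where 51% of all genes did.

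**Figure D3:**
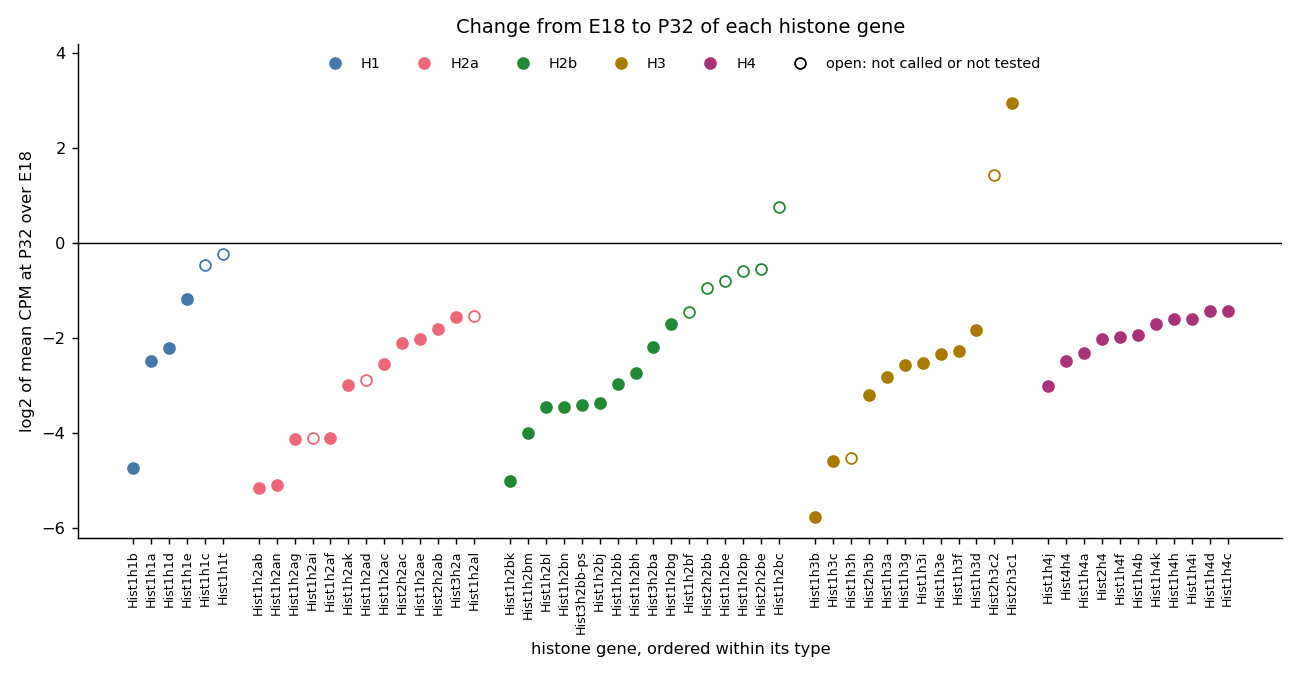
Log2 of the mean CPM at P32 over that at E18 for each histone gene with reads at both ages, ordered within its type. Filled points were called in edgeR (adjusted p under 0.05); the values run from -5.76 for Hist1h3b to 2.95 for Hist2h3c1, and all 11 H4 genes lie between -3.00 and -1.43.

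The 8 called members with the lowest fold changes at a mean of at least 1 CPM lay in the Hist1 cluster on chromosome 13. Hist1h3b (chr13:23752380-23752790, plus strand) held 3.28, 14.6, 4.16 and 5.92 CPM at E18 and 0.168, 0.124, 0.226 and 0 CPM at P32. Every E18 library was above every P32 library. The gene was 53.8-fold lower (log2 -5.75 ± 0.71 SE, adjusted p = 3.835e-05). Hist1h2ab was 38.6-fold lower, Hist1h2bk 31.1-fold, Hist1h1b 26.7-fold and Hist1h3c 23.8-fold. Hist1h2af, Hist1h2ag and Hist1h2bm were 17.3-fold, 16.8-fold and 15.6-fold lower. The largest adjusted p of these was 0.00423, for Hist1h2ag, whose P32 libraries held 0 to 0.256 CPM. P32 library 6 held no read of Hist1h3b, Hist1h2ab, Hist1h2bk or Hist1h2af. That library detected 19117 genes against 21520 to 22117 in the other P32 libraries. Several of these folds rest on few P32 reads, with 4, 2, 3 and 0 for Hist1h3b. Hist1h2ab had 4, 3, 8 and 0 reads, Hist1h2bk 4, 2, 2 and 0, and Hist1h1b 26, 21, 12 and 7. The share of 50-base windows found in other histone transcripts ran from 0% for Hist1h1b to 79.7% for Hist1h2af. The size and order of these folds are thus uncertain.

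The next genes are the most read of each type and the replacement-type members. Hist3h2a, with 85.7, 247, 89 and 194 CPM at E18 and 33.9, 63.4, 58.9 and 53.2 CPM at P32, was 2.95-fold lower without overlap (adjusted p = 0.00232). Its model shares 460 bases with that of Trim17 on the same strand. Hist3h2ba was 4.59-fold lower, Hist2h4 4.02-fold, Hist1h3e 5.07-fold, Hist2h2ac 4.26-fold and Hist1h3f 4.86-fold, with adjusted p of at most 0.00401. Hist4h4, the single H4 gene of chromosome 6, was 5.65-fold lower (adjusted p = 0.00227). Hist1h4d was 2.71-fold lower (adjusted p = 0.0259), a call lost without E18 library 4, E18 library 6 or P32 library 5. Hist1h1e was 2.26-fold lower (adjusted p = 0.047), a call lost without E18 library 4 or P32 library 3, 5 or 6, with a log2 value of -0.39 without E18 library 4. Its model shares 497 bases with that of Hist1h2be.

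7 of the 52 did not pass in either direction. Hist1h1c held 37.6, 117, 34.3 and 111 CPM at E18 and 40.3, 61.6, 53.8 and 62.3 CPM at P32. The P32 libraries lay inside the E18 range. Its log2 fold change was -0.46 ± 0.37 SE (adjusted p = 0.326). Hist2h2be held 8.92, 12, 10.3 and 10.6 CPM at E18, 4.14, 3.40, 4.38 and 4.68 CPM at P10, and 8.03, 6.18, 8.58 and 5.73 CPM at P32. The P10 libraries were below those of either other age, so its course was not a steady fall. Its E18 and P32 libraries did not overlap, yet it did not pass (log2 -0.55 ± 0.24 SE, adjusted p = 0.0785). The DESeq2 Wald test called it lower, as did edgeR without P32 library 5 (adjusted p = 0.0472). Hist2h2bb also did not pass (log2 -0.95 ± 0.49 SE, adjusted p = 0.127). A p over the threshold does not show that a level was unchanged. Hist1h1t held 52 reads over all 28 libraries and at most 0.534 CPM in any.

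Both genes that had risen from P10 to P16 were above their E18 mean at P32. Hist2h3c1 held 0.313, 1.53, 0.313 and 0.532 CPM at E18 and 3.87, 5.07, 5.87 and 5.99 CPM at P32. The groups did not overlap, and it was 7.82-fold higher (log2 2.97 ± 0.51 SE, adjusted p = 0.000491). Hist1h2bc held 4.03, 14.9, 2.68 and 2.25 CPM at E18 and 7.11, 14.8, 8.73 and 9.98 CPM at P32. E18 library 4 was above every P32 library. Its log2 fold change was 0.77 ± 0.53 SE (adjusted p = 0.251), and 1.74 (adjusted p = 0.00151) without E18 library 4. Hist2h3c2, another H3 gene of the same cluster, held 0.0887 to 0.224 CPM at E18 and 0 to 0.68 CPM at P32, on 221 reads in all. It is named here after its values were seen, and 63.5% of its 50-base windows occur in other histone transcripts. For Hist2h3c1 that share is 34.7%.

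Changes are given next by the length of the gene model. The 13 members with a deposited model of at least 900 bases had a median log2 ratio of P32 over E18 of -1.17, and the 45 with a shorter model and a ratio -2.57. Hist1h2ah, Hist2h2aa1 and Hist2h2aa2, also shorter, have no ratio. By GENCODE transcript, the 16 members with a ratio that end within 100 bases of the stem-loop had a median of -2.92 and a range of -5.76 to -1.46. The 23 that run further had a median of -1.82 and a range of -3.00 to 2.95. The 11 whose transcript ends at the stop codon had a median of -3.44 and a range of -5.09 to -0.94. The 6 with bases after the stop codon but no stem-loop match had a median of -1.52 and a range of -4.09 to 0.77. The 2 without a coding sequence had a median of -2.475. This is a description with no test, and it mixes types. Reads of near-identical copies bear on the short models. The median share of 50-base windows found in another histone transcript was 67.3% for H2a, 57.2% for H3, 38.1% for H2b, 28.9% for H4 and 1.1% for H1 genes. The sources used here do not say how the authors assigned such reads. Single values of these copies are therefore uncertain.

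Per kilobase of the deposited model, Hist1h4d had the highest mean level at both ends, 279 CPM per kb at E18 and 103 at P32. Hist2h4 followed at E18 with 147, and Hist2h2bb at P32 with 57.6. The model of Hist1h4d holds 312 bases, its coding length, which bears on this scale. Hist1h1c went from rank 14 (48 CPM per kb) to rank 5 (34.9). Hist1h2bc went from rank 40 (8.17) to 13 (13.9), Hist2h3c1 from rank 57 (0.368) to 26 (2.85), and Hist1h3b from rank 26 (17) to 52 (0.315). Ranks are of the means of 4 libraries, and no neighbours in this order were tested against each other.

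The share of each type also varied between libraries of 1 age. H2b genes took 26.9, 24.5, 25.6 and 10.7% of histone CPM at E18, and 26.3, 23.7, 24.1 and 12.3% at P4. Library 6 was thus far below the others at both ages. At P10 it was at 17.8% against 23.9 to 26.6%, and at P16 at 23.3% against 23.5 to 26.3%. It was again the lowest at P20 (18.1% against 22.0 to 22.95%), P27 (21.9% against 21.99 to 23.3%) and P32 (19.3% against 22.6 to 23.6%). At E18, 14 of 16 H2b genes were lowest in library 6, with a median log2 ratio to the mean of the other 3 of -1.56. That median was -0.88 for H2a genes (5 of 14 lowest in library 6), -0.39 for H3, -0.09 for H4 and 0.06 for H1 genes. At the same age library 6 held 5.92 CPM of Hist1h3b, above libraries 3 and 5. The sources used here do not say what libraries of 1 number share.

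**Figure D4:**
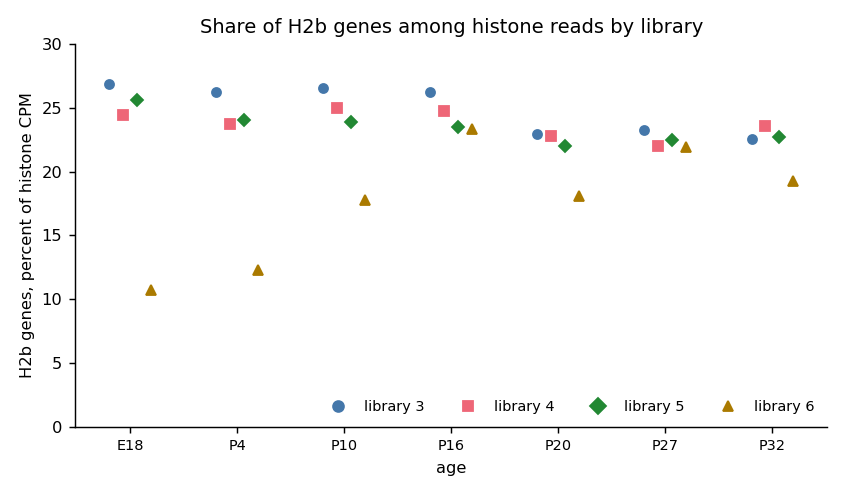
Share of H2b genes in the summed CPM of the 59 histone genes (percent, linear axis from 0) against age, with 1 point per library, marked by number. Library 6 stands at 10.7% at E18 and 12.3% at P4, where the other libraries stand between 23.7% and 26.9%.

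Genes that act in S phase were also counted. The list held 26 genes, and its sum was 378 to 418 CPM at E18 and 415 to 457 CPM at P4. It was 299 to 327 CPM at P10 and 144 to 192 CPM at P16. From E18 to P4 none was called without the block, with 5 higher and 2 lower with it. The block called 15.8% of all genes higher and 13.6% lower, so these counts are near the background. From P4 to P10, where 8.16% of all genes were called lower (18.1% with the block), 8 of the list were called lower (15 with the block). They included Mcm6, a subunit of the replicative helicase (1.96-fold, adjusted p = 0.00262), Rrm2, which makes deoxynucleotides (1.65-fold, adjusted p = 0.014), and Cdk1 (1.81-fold, adjusted p = 0.0181). The list median was -0.46.

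From P10 to P16, 10 of the 26 were called lower and none higher, where 5.65% of all genes were called lower and 6.2% higher. The list median was -0.73. Top2a, which untangles DNA, was 5.14-fold lower, Cdk1, the mitotic kinase, 4.71-fold, Mki67, a proliferation marker, 4.53-fold, and Rrm2 3.42-fold (largest adjusted p = 0.00421). Mcm2 was 2.39-fold lower (adjusted p = 0.0156), a call lost without P10 library 6. From E18 to P32, 16 were called lower and 1 higher (Ccne1, a cyclin of the G1 to S step, log2 1.01, adjusted p = 0.0334), with Cdk1 27.6-fold, Rrm2 16.8-fold, Top2a 15.6-fold and Mki67 11.5-fold lower. Over that span 22.6% of all genes were called lower and 24.1% higher. Cdk1 held only 0.34 ± 0.368 CPM (SD, n = 4) at P32, so the size of its fold is uncertain. The median of the list was -1.18, and that of the histone genes -2.30. No test of that difference was made.

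**Figure D5:**
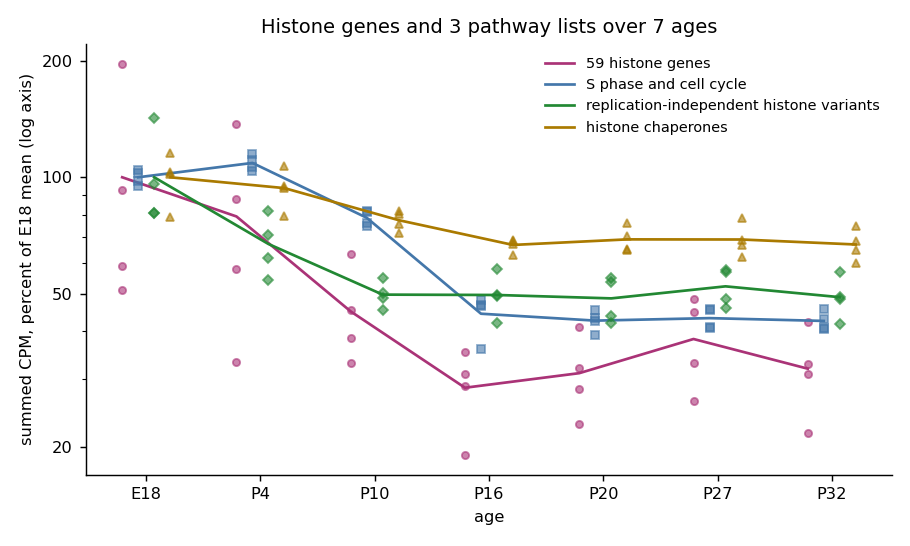
Summed CPM as percent of the E18 mean (log axis) against age, for the 59 histone genes and 3 lists, with 1 point per library and a line through the means. At P16 the histone genes stand at 28.5% of their E18 mean, and the histone points spread most at E18.

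Of the 14 genes that act in transcribing and trimming histone mRNA, none was called lower in any adjacent comparison without the block. From E18 to P4, P4 to P10 and P10 to P16, 3.12%, 8.16% and 5.65% of all genes were called lower. The shares called higher were 4.75%, 10.3% and 6.2%, and after P16 both were 0%. The count for these genes is thus near the background. From P4 to P10 the block gave 3 higher and 4 lower, where 18% of all genes were called higher with it and 18.1% lower. Lsm11, a protein of the U7 snRNP, was 1.72-fold higher from E18 to P4 (adjusted p = 0.0491), Sympk, a scaffold of the cleavage complex, 1.41-fold higher from P4 to P10 (adjusted p = 0.0217), and Npat, the coactivator of histone genes, 1.72-fold higher from P10 to P16 (adjusted p = 0.0319). Of the 8 fits that leave out 1 library, the call of Lsm11 held in those without E18 library 6 or P4 library 4 and was lost in the other 6. That of Npat from P10 to P16 held in those without P16 library 4 or 6 and was lost in the other 6. That of Sympk was lost without P10 library 3 or 6. From E18 to P32, Npat, Mif4gd, Sympk and Cstf2 were called higher and Lsm10, Lsm11 and Cpsf2 lower, 4 and 3 of 14 genes, where 24.1% and 22.6% of all genes were called, so these counts are near the background. Npat went from 35.0 ± 11 to 68.6 ± 10.04 CPM (n = 4; 1.95-fold, adjusted p = 0.00526) and Mif4gd, a partner of SLBP, was 2.34-fold higher (adjusted p = 0.0013). Lsm10 and Lsm11, the pair specific to the U7 snRNP, were 4.06-fold and 3.95-fold lower (adjusted p = 0.00745 and 2.413e-05). Slbp itself was at 24.1 ± 3.65 and 15.95 ± 4.31 CPM (log2 -0.60 ± 0.23 SE, adjusted p = 0.0508).

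A list named for replication-independent variants was counted likewise. Whether each gene on it, H2afx and Cenpa among them, is independent of S phase was not tested. The sum of the 11 genes was 657 to 1158 CPM at E18, 442 to 665 at P4 and 370 to 446 at P10, and stayed between 339 and 471 CPM from P16 on. From E18 to P4, where 3.12% of all genes were called lower (13.6% with the block), 3 variants were called lower (5 with the block). They were H3f3b, which encodes H3.3 (1.62-fold, adjusted p = 0.0468), and H2afy and H2afy2, which encode macroH2A (1.66-fold and 1.65-fold, adjusted p = 0.0455 and 0.0174). Of the 8 fits that leave out 1 library, the call of H3f3b held in the one without E18 library 3 and was lost in the other 7. That of H2afy held in those without E18 library 3 or 4 and was lost in the other 6. That of H2afy2 was lost without P4 library 5 or 6. From P4 to P10, 3 were called lower (with the block, 6 lower and 1 higher), namely H2afx (1.84-fold), H3f3b (1.56-fold) and H2afy2 (2.15-fold). Of all genes, 8.16% were called lower at that step, and 18.1% lower and 18% higher with the block. The call of H2afx was lost without P4 library 4 or 6 or P10 library 3, 5 or 6. From P10 to P16, H1f0, which encodes the linker H1.0 of resting cells, was 1.53-fold higher (adjusted p = 0.0347), while H2afy2 was 1.88-fold lower. The call of H1f0 was lost without P10 library 3, 5 or 6 or P16 library 4 or 5. From E18 to P32, 6 were called lower and none higher, where 22.6% of all genes were called lower and 24.1% higher. H2afy2 was 10.3-fold, Cenpa 4.31-fold, H3f3a 3.06-fold and H3f3b 2.81-fold lower. H2afz did not pass (log2 -0.47 ± 0.48 SE, adjusted p = 0.45).

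Histone chaperones carry new histones to DNA. From E18 to P4 none of 13 was called. Under the block 2 were lower, where 13.6% of all genes were called lower, so that count is near the background. From P4 to P10, Hat1, which acetylates new H4, was called lower (1.57-fold, adjusted p = 0.0285), with 8 of 13 lower under the block. At that step 8.16% of all genes were called lower, and 18.1% under the block. The call of Hat1 was lost without P4 library 4 or 6 or P10 library 3 or 4. From P10 to P16, Nasp, which holds the H3 and H4 reserve, was 2.19-fold lower (adjusted p = 0.00108). From E18 to P32, 9 of 13 were called lower and none higher, where 22.6% of all genes were called lower and 24.1% higher. The list median was -0.70. Chaf1b, a subunit of the replication-coupled chaperone CAF-1, was 14.2-fold lower (adjusted p = 0.00452), Nasp 4.97-fold, Asf1b 2.30-fold and Daxx, which serves H3.3, 1.90-fold lower. Chaf1b held only 0.266 ± 0.483 CPM (SD, n = 4) at P32. Its log2 fold change ran from -7.34 to -3.39 when 1 library was left out, so the size of its fold is uncertain. Of the 8 fits that leave out 1 library, the call of Asf1b held in the one without P32 library 5 and was lost in the other 7. These lists hold other genes than the histone list and were chosen with results of these data known, so they are no independent support for its course.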

How the data were processed

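The deposited tables, 2 for each of 6 comparisons of adjacent ages, hold whole-number read counts per gene and library, which the authors deposited without normalization. Reads were aligned with BWA to GRCm38 (mm10) and compared with edgeR 3.14.0, per the submitters' processing notes. The sources used here do not give the counting tool, the annotation or the use of strand. The deposited tables also hold the authors' fold changes (a linear ratio) and adjusted p-values, used only as an alternative call, and 96 density columns, not used. Each listed gene had at least 4 reads over 8 libraries. Library totals of 8224851 to 40206549 reads set the precision. Column numbers 3 to 6 could not be matched to the labels' replicates, so libraries are named by age and column number, and n counts libraries, each from 1 mouse, per the labels' protocols.

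Counts were filtered (filterByExpr), scaled by TMM and tested two-sided with glmQLFit and glmQLFTest in edgeR 4.0.16 (R 4.3.3), with Benjamini-Hochberg adjustment over all genes and a threshold of 0.05. The procedure was tested on simulated data. Alternatives were other scalings, no filter, DESeq2 1.42.0 (over 7 ages its likelihood ratio test in place of the Wald test), limma-voom (3.58.1), 1 fit of all 28 libraries, a minimum log2 change of 1, the authors' adjusted p, each library left out, and the column number as a block. Deviations of same-numbered libraries from their group means correlated at 0.552 to 0.835 (E18 and P4) and 0.315 to 0.751 (P4 and P10). Libraries of unlike number correlated at -0.636 to 0.441 and at -0.616 to 0.345. P4 library 5 correlated at 0.345 with P10 library 3 and at 0.315 with P10 library 5. The number was taken to pair those ages, a pairing that comes from the data, not the labels, and is less clear from P4 to P10. In the other comparisons the lowest value for the same number was under 0.1. Genes named are called members (up to 8 per direction with a mean of at least 1 CPM), the 2 most read of each type, chosen replacement-type members and, per list, up to 4 called genes. Hist1h2ba and Hist1h2aa are not analysed here. Members and lists were chosen with earlier results of these data known. Stem-loops come from GENCODE M21 transcripts and promoters from RefSeq (GRCm38.p6).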

Additional observations from a re-analysis of the deposited data

Results flagged for a closer look

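Of 175 sets of 4 libraries examined (sums, shares and named genes by age), 16 held 1 library apart from the other 3. By its critical value the rule sets apart about 1 in 20 sets by chance, for independent sets, and these share libraries and genes. 5 were high values of E18 library 4. Its H2b sum was 549.3 CPM against 113.2 to 180.9 in the others, and Hist1h1e stood at 168 CPM against 36.8 to 46.9. In the same library Hist1h2bc stood at 14.85 CPM against 2.25 to 4.03, Hist2h2bb at 127.9 against 24.5 to 33.9, and Hist4h4 at 69 against 13.8 to 22.6.

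The H2b share of E18 library 6 was 10.68% against 24.5% to 26.9%. In P10 library 4 the H3 share was 8.545% against 9.75% to 9.79%, and Hist1h2bc stood at 7.576 CPM against 3.48 to 3.71. P16 library 3 held an H2a sum of 35.93 CPM against 70.3 to 75.8, and P32 library 3 an H3 sum of 15.48 CPM against 24.8 to 26.3. P20 library 5 held an H3 sum of 33.71 CPM against 21.8 to 23.7, Hist1h3e at 13.05 against 6.04 to 6.26, and Hist3h2ba at 33.33 against 15.1 to 17.1. Hist1h1t, the testis H1 gene, stood apart in library 5 at 3 ages, with 0.2444 CPM at P16, 0.1588 at P27 and 0.1506 at P32. The others held 0 to 0.0414 CPM at P16 and 0 at P27 and P32, where library 5 had 6 and 2 reads. With the others at 0, any single read sets a library apart, so these flags carry no weight. Library 5 was also highest at P20, with 0.534 CPM, but library 4 held 0.212 CPM there. The gene had 52 reads over all libraries.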

How the results depend on the processing

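Of 336 alternative values for the counts of called histone genes and the type sums, 311 stayed close to the reported one and 25 moved. Those that stayed close include the counts of every comparison after P16, which were 0 under each setting. They also include the H2b log2 ratio of P32 over E18, which leaving out 1 library took from -1.62 to as little as -0.88. The tally is therefore no measure of how firm the larger counts or the type sums are. From E18 to P4 the count called lower went from 0 to 1 with the DESeq2 Wald test and to 13 with the replicate block on the column number. From P4 to P10 it went from 5 to 11 with total-count scaling, 15 with DESeq2, 1 with limma-voom, 1 in the fit of all 28 libraries, 28 with the block, 3 at a log2 change of at least 1, and 11 by the authors' deposited table. Leaving out 1 library gave 0 to 20. Of 17717 genes tested at that step, total-count scaling called 1695 lower, DESeq2 1996, limma-voom 1490 and the block 3212. The authors' table called 1668 of 24466 genes lower, and the fit without P4 library 5 called 1358 of 18241. From P10 to P16 the fit of all 28 libraries called 10 lower in place of 18, and leaving out 1 library gave 1 to 2 called higher. From E18 to P32 the block called 2 higher in place of 1, and leaving out 1 library gave 1 to 2. The block called 25 lower from P10 to P16 and 45 from E18 to P32, with 1674 of 17474 and 4619 of 18533 genes called lower. Same-numbered libraries correlated at as little as 0.054 between P10 and P16 and 0.016 between E18 and P32. The block is thus weakly grounded in these comparisons. Among single genes, 4306 values kept their call, 87 passed the threshold where the reported one did not, 165 no longer passed, and 0 changed direction past it. Without its most abundant gene the H2a log2 ratio became -2.59. Leaving out a library was not run for Ccne1, Sympk, Cstf2 and Cpsf2 from E18 to P32. The causes were not tested. Total-count scaling put the median of all genes from E18 to P32 at -0.30 in place of -0.01.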

Other observations

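Hist1h2ai, an H2a gene named here after its values were seen, held reads mainly in the libraries numbered 4. At E18 library 4 held 9.96 CPM and libraries 3, 5 and 6 held 0.217, 0.0895 and 0.237 CPM. At P4 the values were 5.84 CPM against 0.215, 0.0603 and 0.196 CPM, and at P10 2.48 CPM against 0 in each of the others. Of its 50-base windows, 90.1% occur in other histone transcripts.

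Hist1h2be, an H2b gene likewise named after its values were seen, held 0.799 CPM in E18 library 6, where the mean of the other 3 libraries was 12.03 CPM. Hist2h2be, of the same type, held 10.6 CPM there against a mean of 10.4 CPM.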
